A study of Homo sapiens with 2 samples.

Results

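Of 33349 peaks of H4R3me2a, the asymmetrically dimethylated form of histone H4 arginine 3, 1540 had their summit in a 3' untranslated region (3' UTR) away from promoters. The peaks are from HCT116, an established line of human colorectal carcinoma cells. The cells were untreated, their chromatin was cross-linked and sonicated, and 1 library precipitated with an H4R3me2a antibody was set against 1 library of input DNA from the same line. A peak belonged to this set if it lay on chromosomes 1 to 22 or X, if its summit fell in a 3' UTR that GENCODE release 44 (build GRCh38) gives to at least 1 transcript of a protein-coding gene, and if it was outside all 5' UTRs. The summit also had to be more than 1 kb from all transcription start sites (TSSs) of such genes. The members were 4.62% of the peaks (95% exact interval 4.40 to 4.85%) and lay in the 3' UTRs of 1310 genes. There were no replicates, so no value has a replicate check and no test between conditions was possible. All intervals cover counting error only, and they take neighbouring peaks as independent. The files hold no expression values, so the label of the cell line was not checked.

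H4R3me2a is placed mainly by the arginine methyltransferase PRMT1 and is known chiefly as a mark of active chromatin. A 3' UTR is the part of a messenger RNA between the stop codon and the poly(A) tail, where binding sites for microRNAs and RNA-binding proteins are concentrated. In chromatin it is simply the far end of the gene, usually within the last exon. One annotated class of transcript blurs this picture. Transcripts marked for nonsense-mediated decay carry an early stop codon, so everything after that stop is annotated as 3' UTR although the gene's main transcript codes for protein there.

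The sequence at the summits of the strongest members is shown because GC content was high at all of them, while the number of CpG dinucleotides varies between members. The runs below are the 30 bases centred on the summits of the 8 members with the highest fold enrichment inside a canonical 3' UTR, read 5′ to 3′ on the strand of the messenger RNA from the GRCh38 reference. Capitals mark CpG dinucleotides.
NBL1, chr1:19658111-19658140, plus strand: gaCGaggaggacatgggacttgCGtggaca
BHLHA15, chr7:98214407-98214436, plus strand: gatgctgggtctgccccttgggaggggcac
HAPLN2, chr1:156625383-156625412, plus strand: aggCGcccacCGtgtcccctccagCGCGCG
DVL3, chr3:184171372-184171401, plus strand: gggccccctcagttgcctgagcagctggtg
GIPC3, chr19:3592744-3592773, plus strand: ttcagcccagccctggagcccaccttagtt
EFNA3, chr1:155086612-155086641, plus strand: tccaagggaagcctagtgggcctagacccc
CDT1, chr16:88808504-88808533, plus strand: gtgggcacctctgtccttgctgctggtggg
TOM1L2, chr17:17846989-17847018, minus strand: ggcttcacacccaagctggctcagcagcCG
HAPLN2 had 5 CpG dinucleotides, NBL1 had 2, TOM1L2 had 1, and the remaining runs had 0.

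The members were narrow peaks built on few fragments. The deposited pileup, taken as the number of fragments stacked at the summit, had a median of 11 (quartiles 9 and 13, range 5 to 24). The local background at the summit, recovered from the deposited fold, had a median of 1.78 fragments (quartiles 1.35 and 2.40). The deposited fold enrichment, the authors' ratio of pileup to background with 1 added to each, had a median of 4.08 (95% interval of the median 4.02 to 4.12) and ran from 2.37 to 8.33. Widths ran from 126 to 1141 bp with a median of 190 bp. Over all peaks the medians were a fold of 4.18, a pileup of 10, a background of 1.54 fragments and a width of 185 bp. The 3' UTR peaks thus had both more fragments and more background at the median than all peaks, with a slightly lower fold. Coding exon peaks away from promoters shared this, with medians of 11 fragments, a background of 1.81, a fold of 4.13 and a width of 198 bp. Here and below, that class leaves out bases that any transcript of a protein-coding gene gives to a UTR. Folds of at least 6 were found at 39 members (2.53%, 1.81 to 3.45%), against 3.51% of all peaks. A −log10 q of at least 5 was found at 61 members (3.96%, 3.04 to 5.06%), against 3.84% of all peaks.

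**Figure D1:**
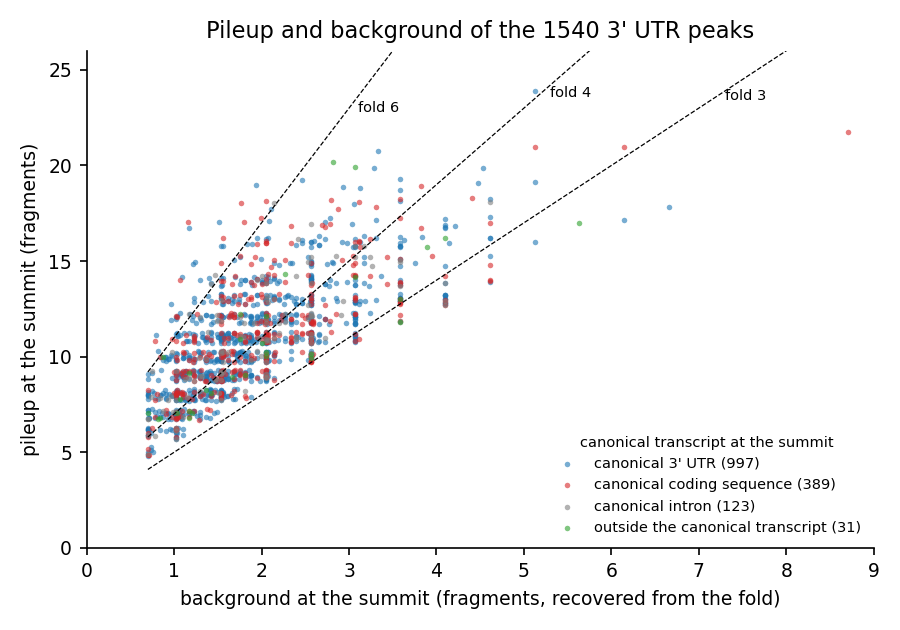
Each point is 1 of the 1540 peaks, with the background at its summit on the x axis and the deposited pileup on the y axis, both in fragments. Points are moved by up to 0.3 vertically so that they can be told apart, dashed lines mark folds of 3, 4 and 6, and colours give what the gene's canonical transcript has at the summit. The 4 colours overlap throughout, and pileups rise with the background. Only called peaks are shown, and a call requires a pileup above its background, so part of that rise is fixed by the selection.

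A large minority of members was not in the 3' UTR of a gene's main transcript. The summit lay in a canonical 3' UTR, that of the transcript Ensembl takes as representative of a gene, in 997 members (64.7%, 62.3 to 67.1%). A further 389 (25.3%, 23.1 to 27.5%) lay in canonical coding sequence, 123 (7.99%) in an intron of the canonical transcript and 31 (2.01%) outside it. Transcripts for nonsense-mediated decay were the only source of the 3' UTR label for 369 members (24.0%), and 310 of these lay in canonical coding sequence. These subsets had similar values: the median pileup was 11 for canonical 3' UTR, coding sequence and intron alike, and the median folds were 4.12, 4.03 and 4.04. The coding subset was richer in GC, with a median of 62.6% around the summit against 60.1% in the canonical 3' UTRs. Of the 39 members with a fold of 6 or more, 23 lay in a canonical 3' UTR and 12 in canonical coding sequence. Annotations also overlapped: 633 members (41.1%) had coding sequence of some transcript over part or all of their width. In 1124 (73.0%) the whole peak lay within annotated 3' UTR, and the same peak can be in both counts.

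**Figure D2:**
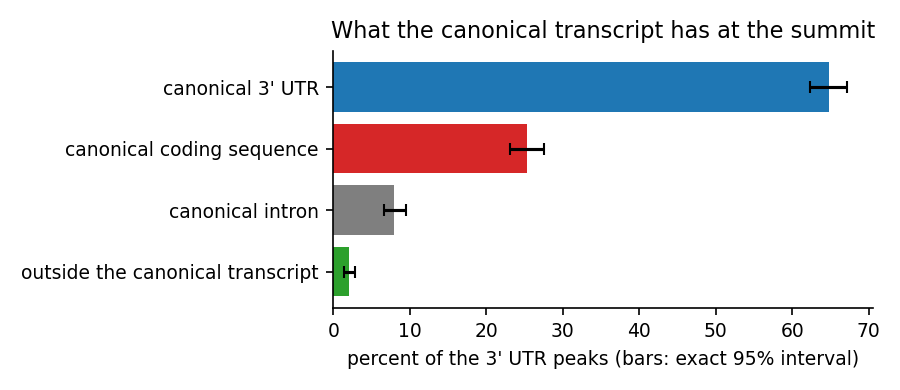
Bars give the percentage of the 1540 peaks whose summit falls in each part of the canonical transcript, with exact 95% intervals. The canonical 3' UTR holds 64.7% and canonical coding sequence 25.3%.

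The peaks with the highest fold were at genes of several unrelated functions. The top member lay at SIX5, a homeobox transcription factor (chromosome 19, 45766575 to 45766859), with 17 fragments over a background of 1.16 and a fold of 8.33. That summit was in canonical coding sequence and in the 3' UTR of another protein-coding transcript. NBL1, a secreted antagonist of bone morphogenetic proteins, had the second (chromosome 1, 19657687 to 19658644), again with 17 fragments, over 1.17, and a fold of 8.31. The NBL1 peak was also among the widest, at 958 bp, and its summit lay 999 bases after the start of a canonical 3' UTR of 1326 bases. These were the highest −log10 q values of the set as well, 9.0 at SIX5 and 8.96 at NBL1. The next was SPTBN4, a beta spectrin, with a fold of 7.27 from 14 fragments, in canonical coding sequence and in the 3' UTR of a transcript for nonsense-mediated decay.

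The others of the 10 highest folds fell in a narrow range from 6.82 to 7.21. They were at BHLHA15, a basic helix-loop-helix factor of secretory cells (fold 7.21, 15 fragments), HAPLN2, a link protein of the extracellular matrix (7.18, 14 fragments), and DVL3, a Dishevelled protein that relays WNT signals (7.17, 17 fragments). GIPC3, a PDZ domain protein needed for hearing, had 7.15 from 13 fragments, and EFNA3, an ephrin ligand, had 7.13 from 15. NCKAP5L (6.88, 18 fragments) lay in canonical coding sequence. CDT1, which licenses DNA replication origins, had 6.82 from 19 fragments. Backgrounds at these peaks were 0.959 fragments at GIPC3 to 1.93 at CDT1, so the fold does not rank them by the number of fragments. The widest member, 1141 bp, lay in the 3' UTR of CEP170B (fold 5.43). After it and NBL1 came peaks at AATK, a kinase gene (939 bp, fold 2.71 over a background of 5.63), TBC1D10B, an activator of RAB GTPases (854 bp, 5.0), and PERCC1 (833 bp, 6.12).

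The rule's distance limit cut through a continuous range. Just beyond it were members at REXO1 (1006 bp from a TSS, fold 4.21), TNKS1BP1 (1006 bp, 3.94) and MYO15B (1008 bp, 3.49). Just within it, and so left out, were 3' UTR peaks at RPUSD1 (1000 bp, 3.05), SYVN1 (996 bp, 5.81) and CLIP1 (995 bp, 4.89). Of 2237 peaks with a 3' UTR summit, 690 lay within 1 kb of a TSS, 32 of them also in a 5' UTR, and 7 further away were left out because the summit was also in a 5' UTR. The median distance of members to the nearest protein-coding TSS was 3827.5 bp (quartiles 2054.5 and 7599). A TSS of a gene of another type lay within 1 kb of 96 members (6.23%).

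The members followed GC content closely. The 401 bp around the summits had a median GC content of 60.6% (range 39.7 to 79.1%). High GC content was shared by the whole peak list, with a median of 59.6% over all peaks. By class the median was 63.3% at coding exon, 62.8% at promoter and 57.6% at intron peaks. Of the 1540 members, 1284 (83.4%) were above the mean of the 3' UTR sequence of their own gene. The median difference was 3.69 percentage points over all members. The observed to expected CpG ratio had a median of 0.285, between 0.262 at intron and 0.251 at intergenic peaks and 0.383 at coding exon and 0.420 at promoter peaks. Within the set it was 0.266 in canonical 3' UTRs and 0.341 in canonical coding sequence. In all, 91 members (5.91%, 4.78 to 7.21%) lay in CpG-island-like sequence, defined as at least 50% GC with an observed to expected CpG ratio of 0.6 or more. Over all peaks that share was higher, at 13.3% (12.95 to 13.7%). It was 19.3% (17.3 to 21.4%) for coding exon peaks away from promoters, 2.92% (2.63 to 3.23%) for intron peaks and 32.1% for promoter peaks. Per megabase of eligible 3' UTR the density rose from 0.0997 peaks below 40% GC, from 2 peaks, to 6.55 at 40 to 50%, 81.5 at 50 to 60% and 322 at 60 to 70% (interval 300.4 to 346). It was 322 also at 70 to 80%, from 40 peaks (interval 230 to 438), so no further rise was detectable. Above 80% GC there were 0 peaks in 0.00268 Mb of 3' UTR, which allows a density above that of the 15 intron peaks there (109 per megabase), so the classes cannot be compared. Sequence below 40% GC makes up 45.7% of the eligible 3' UTR bases. The part of GC content in library preparation and sequencing in these densities was not tested.

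At the same GC content, 3' UTRs held more peaks than introns. Applying the peak rate of each 2% bin of GC content over the genome to the 43.9 Mb of eligible 3' UTR gives 1024 peaks, and the observed number was 1.5 times that (1.43 to 1.58). The same ratio was 1.34 (1.28 to 1.41) for coding exons away from promoters and 1.09 (1.07 to 1.11) for introns. Coding bases that any transcript gives to a 3' UTR were counted as 3' UTR and not as coding exon. As a result, 428 members (27.8%) lay in the coding sequence of some transcript. With such sequence left out, the ratio of 3' UTRs was 1.46. Promoters stood at 1.40 (1.38 to 1.43). Among the classes given here, only intergenic sequence was below 1, at 0.650 (0.634 to 0.668). It enters the genome-wide rate that sets a ratio of 1, as do classes not given here, such as non-coding exons. The intervals of 3' UTRs and introns do not overlap, and 3' UTRs stayed above introns among peaks with a fold of 4 or more (1.39 against 1.04) and with a −log10 q of 5 or more (1.47 against 0.966). The order of 3' UTRs and promoters turned with the threshold, since promoters were higher at a fold of 4 or more (1.47) and at a −log10 q of 5 or more (1.57). With rates taken within each chromosome, the ratio of 3' UTRs was 1.38 (1.31 to 1.45), against 1.29 (1.22 to 1.35) for coding exons and 1.07 (1.05 to 1.08) for introns.

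**Figure D3:**
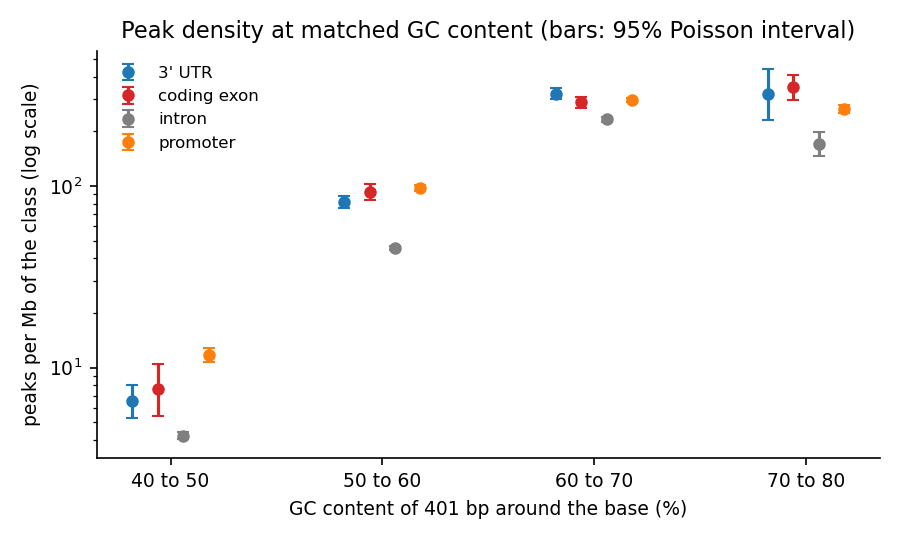
Points give peaks per megabase of each class on a log scale, by GC content of the surrounding 401 bp, with 95% Poisson intervals. Introns lie below the 3' UTRs in the 4 GC ranges plotted, from 40 to 80%, for example at 45.7 against 81.5 peaks per megabase at 50 to 60% GC. The order against coding exons and promoters changes with the range. They lie above the 3' UTRs at 50 to 60% (92.4 and 97.1) and below them at 60 to 70% (289 and 296 against 322).

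Along the canonical 3' UTR, peaks thinned out from the stop codon to the transcript end. The 50% of each canonical 3' UTR next to the stop codon held 610 of 997 summits (61.2%, 58.1 to 64.2%), against 49.5% of the eligible bases. GC content falls along the 3' UTR in the same direction, and from GC content alone 59.8% would lie there, a value inside the interval. With each 3' UTR cut into 10 equal bins, bin 1 had 47.9 peaks per eligible megabase (40.5 to 56.2) and bin 9 had 25.1 (20.02 to 31.2). Relative to GC content their intervals overlapped, with ratios of 1.38 (1.17 to 1.62) and 1.56 (1.25 to 1.94). Bin 10, at the transcript end, was the exception with 25 summits, or 7.61 per megabase (4.93 to 11.2), and a ratio of 0.741 (0.480 to 1.09). With GC content read from 100 bp on either side, a window chosen for this comparison after its result was seen, that ratio was 0.868 (0.561 to 1.28).

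**Figure D4:**
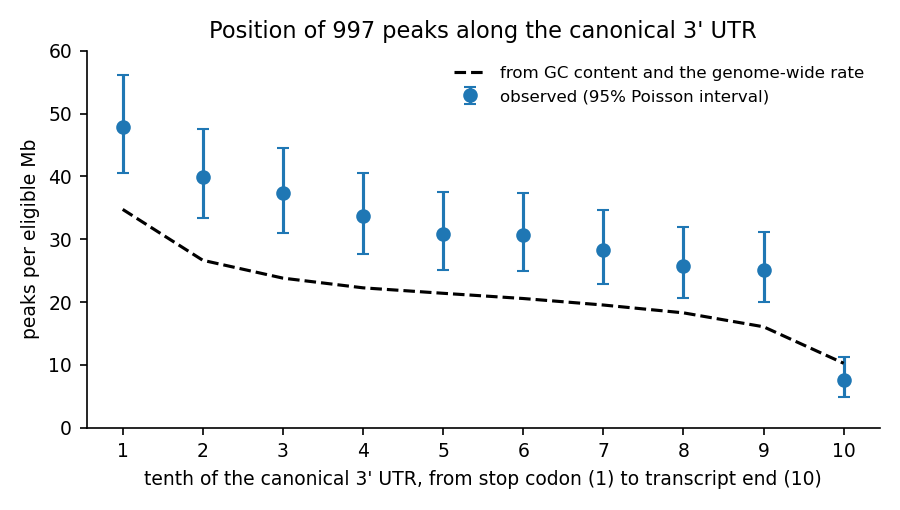
Points give peaks per eligible megabase in 10 equal bins of the canonical 3' UTR from the stop codon to the transcript end, with 95% Poisson intervals, and the dashed line gives the number that GC content and the genome-wide peak rate would yield. Observed values lie above the line in bins 1 to 9 and below it in bin 10.

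The density near gene ends was above the GC-based number on both sides of the transcript end. Over 19868 canonical transcripts with a 3' UTR, all peaks away from promoters were placed by their distance from the transcript end, so that a peak near several ends counts at each. In the last 1000 bp of the gene there were 856, or 1.46 times the number from GC content (1.37 to 1.56). In the first 1000 bp beyond the end there were 716, also 1.46 times (1.36 to 1.57), and from 2000 to 3000 bp beyond it the ratio was 1.44 (1.33 to 1.56). The ratio lay between 1.4 and 1.62 in all windows of 1000 bp from 3000 bp before to 3000 bp beyond the end. Peak density was lower beyond the end (39.7 against 50.004 per megabase), and the ratio was the same. At the end itself the density dipped, with 30 summits in the last 100 bp against 97 between 400 and 300 bp before the end. From 100 to 200 bp beyond the end there were 93. Measured against GC content over 401 bp, the last 100 bp had a ratio of 0.840 (0.566 to 1.20) and the stretch from 100 to 200 bp beyond had 2.47 (2.0 to 3.03). With GC content over the shorter window these became 1.39 (0.936 to 1.98) and 1.85 (1.49 to 2.27). With the shorter window the count in the dip was no longer below the GC-based number.

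**Figure D5:**
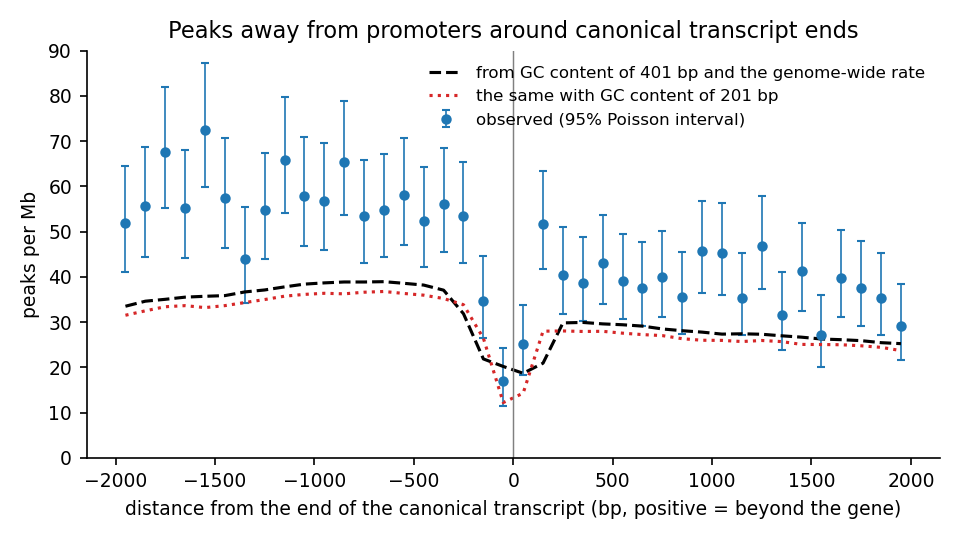
Points give peaks per megabase in 100-bp bins by distance from the canonical transcript end, promoters left out, with 95% Poisson intervals. The dashed and dotted lines give the number from GC content over 401 bp and over the shorter window, and the dip at 0 is present in the points and in both lines.

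Sequence signals of 3' UTRs were rare around the summits, with shares near or below those at the same GC content. The polyadenylation hexamer AATAAA, which marks where the transcript is cut, occurred on either strand within the 401 bp in 212 members (13.8%, 12.1 to 15.6%). Over all eligible 3' UTR positions 50.6% had it within such a window, but at the GC content of the members only 15.1% did. The AU-rich core ATTTA, a destabilising element, was found in 261 (16.9%, 15.1 to 18.9%), against 19.3% at the same GC content and 68.5% over all positions. The site TGTANATA bound by Pumilio proteins was found in 19 (1.23%, 0.744 to 1.92%), against 2.18% and 10.9%. The last 2 shares lie below the value at the same GC content, and both intervals end under it, that of ATTTA narrowly. The reverse complement of each motif was searched as well, and matches of different motifs can overlap. Among all 33349 peaks the shares were 11.6%, 20.3% and 1.13%. A match is a string of letters and not evidence of a working site.

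Nearly all members lay in unique sequence. The central 32 bases occurred once in the genome in 1517 members (98.5%, 97.8 to 99.1%) and more than 10 times in 10 members, among them those at FADS6 and CD68. Copies were counted for the members only, so this share cannot be compared with that of other peaks. No annotated microRNA hairpin of the RefSeq table overlapped a member. Without a share over all peaks, that absence is not a result about the members.

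Most genes had a single member, and a few had a series of them. Of the 1310 genes, 1076 had 1 peak in their 3' UTRs, 186 had 2 and 48 had 3 or more. Most peaks, 6, were counted for AATK on chromosome 17, with pileups of 16 to 20 and folds of 2.71 to 5.51 over 5715 bp. The 3' UTR of its longer transcripts runs into that of BAIAP2, which lies on the opposite strand, and 3 of the 6 summits were in the canonical 3' UTR of BAIAP2 (17, 16 and 16 fragments, folds of 3.53, 3.71 and 4.72). Peaks have no strand, so they cannot be given to either gene. Such sharing was uncommon, since 46 members (2.99%) lay in 3' UTRs of more than 1 gene and 116 (7.53%) under a protein-coding gene of the opposite strand.

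Among the genes richest in members, series in a true terminal 3' UTR and series in coding sequence were both found. MBD3, a subunit of the NuRD complex, had 4 summits in a canonical 3' UTR of 4571 bases, with 10, 15, 11 and 14 fragments and folds of 3.61, 5.0, 4.2 and 3.77. GLIS2, a zinc finger factor, had 4 within 1142 bp, with 10 to 14 fragments and folds of 3.94 to 5.90. TOM1L2, an endosomal sorting protein, had 4 with 7 to 16 fragments and folds of 3.32 to 6.70. In these genes all the summits counted lay in the canonical 3' UTR. In TNKS1BP1, a tankyrase-binding protein, all 5 lay in canonical coding sequence, with 9 to 13 fragments and folds of 2.95 to 3.94. So did the 4 of CACNA1G, a T-type calcium channel (folds of 3.6 to 6.43), and the 4 of SPTBN4 (3.94 to 7.27). PDZD7, a scaffold protein of hair cells, had 5 (3.62 to 6.01), of which 3 were in canonical coding sequence and 2 in introns. TAF1C, a factor of RNA polymerase I, had 4 (2.67 to 4.62), 1 of them in the canonical 3' UTR.

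Whether a gene had a member depended strongly on the GC content of its 3' UTR. Among 18780 protein-coding genes with eligible 3' UTR sequence, 1310 or 6.98% had a member. Sorted by 3' UTR GC content into 10 groups of 1878 genes, 0 of 1878 did in the lowest group (22.3 to 32.9% GC), which allows a share of up to 0.196% by the exact interval. In group 5 the share was 2.02%, and in the highest group, from 58.2% GC, it was 25.2% (23.3 to 27.3%). The median eligible 3' UTR was shorter in the highest group, at 760 bases, than in the lowest, at 1501.5. Genes with a member had a median 3' UTR GC content of 56.0% against 41.9% in the other genes, and 2251 against 1560.5 eligible bases.

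Genes with a 3' UTR peak also carried the mark elsewhere more often than other genes. A promoter peak, within 1 kb of any TSS of the gene, was present in 835 of 1310 (63.7%, 61.1 to 66.3%). The background over all genes with eligible sequence was 31.7%, and genes without a member, weighted to the same 3' UTR GC content, had 47.1%. With weighting on gene length as well this was 49.7%. With only the better 50% of peaks by −log10 q, 350 of 713 genes with a member had a promoter peak (49.1%, 45.4 to 52.8%), against 20.7% of all genes and a weighted 35.1% of genes without one. At a −log10 q of at least 5 it was 6 of 61 (9.84%, 3.7 to 20.2%), against 3.04% and a weighted 6.58%, which lies inside the interval. Near the gene's 5' end alone, 484 (36.9%, 34.3 to 39.6%) had a peak against a background of 19.2% and a weighted 26.2%. A coding exon peak was present in 226 (17.3%, 15.2 to 19.4%), with 6.29% in the background and 12.6% after weighting. For intron peaks the values were 818 (62.4%, 59.8 to 65.1%), 27.2% and 40.4%, and 49.2% with weighting on gene length too. No peak of any of these kinds was found in 189 genes with a member (14.4%, 12.6 to 16.4%), against an unweighted 57.2% of the genes without one. This comparison was not weighted to the same GC content or gene length, so it is not on a par with the weighted ones. Position on the chromosome was not weighted, and its part in these differences was not tested. Clustering was also seen between peaks: another summit lay within 1 kb of 466 members (30.3%, 28.0 to 32.6%), against 24.4% of all peaks. The share was similar in coding exon peaks (30.8%) and promoter peaks (31.3%) and lower in intron peaks (21.9%, 21.2 to 22.6%). These shares were not weighted to the same GC content.

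Chromosomes contributed unequally. Chromosome 19 held 235 members (111 per eligible megabase), chromosome 17 held 206 (97.9), chromosome 16 held 135 (84.7) and chromosome 22 held 81 (95.9). Picked after their values were seen, these chromosomes had 42.7% of the members on 15.2% of the eligible bases, and 33.8% of all peaks. Chromosome 18 had 4 members (4.32 per megabase) and X had 14 (8.43). Against the genome-wide rate at the same GC content the ratio was 2.27 (1.97 to 2.6) on chromosome 17, 1.88 (1.64 to 2.13) on 19 and 0.629 (0.344 to 1.06) on X. Against each chromosome's own rate the ratio was above 1 on all 23 chromosomes, with 1.26 (1.09 to 1.44) on 17, 1.22 (1.06 to 1.38) on 19 and 3.4 (1.86 to 5.71) on X. Several of these intervals include 1, such as that of chromosome 18 (0.338 to 3.17). The background at the members also differed, with medians of 2.56 fragments on chromosome 8, 2.14 on 17 and 0.80 on X, and the part of DNA copy number was not tested.

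Genes that act on 3' UTRs, or are known to be regulated through theirs, gave small counts. Against the 6.98% of all genes, a member was found in 2 of 25 eligible genes of mRNA 3' end formation, 2 of 23 of the microRNA pathway and 2 of 48 of mRNA decay. These were CPSF4 (fold 4.60) and CPSF6 (5.93, in canonical coding sequence), which act in cleavage and polyadenylation, the microRNA effectors AGO2 (3.82) and TNRC6B (4.85), and the decay factors EDC3 (3.28) and SKIC2 (4.86, in canonical coding sequence). None of the 23 eligible selenoprotein genes, whose 3' UTRs carry the element that recodes a stop codon to selenocysteine, had one, which allows up to 14.8% by the exact interval. None of 34 genes with AU-rich elements did either (up to 10.3%). The median GC content of the eligible 3' UTRs was 36.1% in the 3' end formation list and 40.4% in the AU-rich list, against 42.8% over all genes.

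Lists for the tissue and its signalling gave similarly small counts. In the WNT pathway, 4 of 40 genes (10.0%, 2.79 to 23.7%) had a member, led by DVL3 (7.17), NOTUM, a secreted WNT deacylase (4.17), and PYGO2, a cofactor of beta-catenin (3.88), with DVL1 as the fourth. In EGFR, RAS and MAPK signalling 3 of 31 did, namely SPRED3, a RAS pathway inhibitor (4.34), the kinase AKT2 (3.44) and the receptor ERBB2 (3.37, in canonical coding sequence). Intestinal epithelium had 1 of 32, the mucin gene MUC5B (3.37). Glycolysis had 2 of 19, ENO1, an enolase (6.73), and PFKFB4 (3.94), both in canonical coding sequence and assigned through a decay transcript. Of the PRMT family 1 of 9 had a member, PRMT7 (3.93, 13 fragments). Cytosolic ribosomal protein genes had 3 of 62, namely RPS19 (4.92, in a canonical intron), RPS15 (4.84) and RPL13 (3.55). The exact interval of every list included 6.98%, so no list was told apart from the background.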

How the data were processed

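One H4R3me2a library and 1 input library of HCT116 cells were compared. The submitters' processing notes name Bowtie2, MACS2, deepTools and GRCh38, without versions or settings. Per the file headers, the deposited peak table gives the summit, the pileup, the fold and the −log10 of p and q for each peak. Peaks were called on single libraries, and the fold is a ratio over local background. The headers do not state the unit of the pileup. It was taken as a signal of whole fragments, not normalized, because its values are whole numbers and because of the Poisson tail check given below. Library totals were not used, so depth is known from the pileup alone. Values were used only within this list.

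The background was recovered as (pileup + 1) / fold − 1, and a Poisson tail at that background matched the deposited −log10 p of every peak within 0.00014. Summits were placed in GENCODE release 44 (annotated 3' UTRs include the stop codon). GC content was read 200 bp on either side of each base, and GC-based numbers come from the peak rate per 2% bin over chromosomes 1 to 22 and X. That rate includes the members. Intervals are at 95%, exact (Clopper-Pearson) for shares, Poisson for numbers and from binomial ranks for medians. The formula of the ratio, written out separately, was tried on Poisson summits simulated at the observed GC rates. That checks the arithmetic of the formula only. Python 3.11.15, scipy 1.17.1 and pysam 0.24.0 were used.

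The members and gene lists were chosen with earlier results of these data known. Named were the genes of the 10 highest folds, the 5 widest peaks, the 5 highest −log10 q, the 10 genes with most members and up to 3 members of each list. One of the 10 genes with most members has no symbol and is not described. Alternatives were stricter peak sets, other distances from TSSs, other sets of transcripts, other rules of overlap, merging of peaks, other GC windows and bins and, added after seeing the data, rates within chromosomes, removal of repeated sequence, promoter shares of all genes under stricter peak sets and the shorter GC window along the 3' UTR and at transcript ends.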

Additional observations from a re-analysis of the deposited data

How the results depend on the processing

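The ratio of 3' UTR peaks to the number from GC content stayed above 1 under all 14 alternatives run for it (1.38 to 1.56). It was lower than its interval at a fold of 4 or more (1.39), at more than 3 kb from TSSs (1.41) and with rates within each chromosome (1.38, added after seeing the data). The share of peaks in the set follows its definition: it was 5.42% and 2.78% with TSS distances of 500 bp and 3 kb, 4.33% with TSSs of all gene types, 2.99% with canonical transcripts only, 3.51% with transcripts of the protein-coding type only, 3.33% without summits in coding sequence, 4.17% at a fold of 4 or more and 4.32% after merging peaks less than 1 kb apart. The share in the 50% of the 3' UTR next to the stop codon was 67.6% at a −log10 q of 5 or more and 57.5% beyond 3 kb from TSSs. With stricter peak sets, where both the members and the promoter peaks are fewer, the share of genes with a promoter peak was 49.1% with the better 50% of peaks by −log10 q and 9.84% at a −log10 q of 5 or more; the shares over all genes at the same strictness, added after seeing the data, were 20.7% and 3.04%. The share in CpG-island-like sequence was 11.5% at a −log10 q of 5 or more (7 of 61 peaks), 4.77% without coding sequence and 2.27% with a CpG ratio of 0.75. The median fold rose to 4.67 and 6.18 in the 2 sets chosen on −log10 q, which follows from that choice. The other 30 of 50 values lay within the interval of the value reported. No paired analysis was possible because each group has 1 library. Low pileups limit all values, since 711 members (46.2%) had 10 fragments or fewer.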
